A study of Homo sapiens with 10 samples.

Results

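The cGAS-STING genes examined here are 10 named genes of the pathway that detects DNA in the cytosol, CGAS, STING1, TBK1, IKBKE, IRF3, IRF7, IRF1, TREX1, SAMHD1 and IFI16. They were chosen by name, through the rows of a gene count table whose Ensembl identifiers map to these symbols, and all 10 were found among its 61587 rows. In irradiated renal proximal tubular epithelial cells (RPTECs) the mRNA of the kinase gene IKBKE was 1.92-fold that of control cells, and the mRNA of the adaptor gene STING1 was lower by 36.9% (log2 fold change -0.66). The transcription factor gene IRF3 was at 1.18-fold the control level, but its groups overlapped. In a fit that left out replicate numbers its adjusted p-value was 0.105 (edgeR). The mRNA of the sensor CGAS itself was represented by 1 to 4 counts per sample, and TREX1 could not be measured with these counts.

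In this pathway the enzyme cGAS binds double-stranded DNA and makes the cyclic dinucleotide cGAMP, which binds the adaptor STING at the endoplasmic reticulum. STING moves to the Golgi and recruits the kinases TBK1 and IKKε (the product of IKBKE), which phosphorylate IRF3 and allow transcription of type I interferon genes, and it also activates NF-κB. Irradiated cells that stop dividing can accumulate DNA outside the nucleus, and the pathway is one of the known routes to inflammatory gene expression in senescent cells.

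The data are bulk RNA-seq of polyA RNA from RPTEC/TERT1 cells, a human proximal tubular epithelial line immortalised with telomerase. Of the 10 samples, 5 were exposed to 10 Gy of irradiation and 5 were mock-irradiated controls, all collected on day 7, and replicates 1 to 5 are numbered alike in both groups. The series design names this single line, grown in plates, but the cell line labels carry a number that differs from sample to sample, which was taken here as a numbering of one line. Nothing in the sources states that replicates were separate cultures, so that p-values measure the spread between these samples, which may be technical. In bulk samples a lower value can reflect fewer cells that express a gene or less RNA per cell, and the 2 cannot be told apart.

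Total counts ranged from 78081911 to 131555873 in control and from 66269311 to 101594948 in irradiated samples. All 20 genes of a cell cycle list fell in irradiated cells, with a median log2 fold change of -1.92 (MKI67, a marker of dividing cells, fell by 2.57). Controls 1 and 3 had lower cell cycle expression than the other controls, with a list mean of 3.78 and 3.80 on the log2(CPM + 1) scale against 4.97 to 5.09, while irradiated samples lay between 2.56 and 3.09. Of 15 tubule epithelium markers 12 were tested, 2 rose and 3 fell, and their summed level was 2788 to 3328 CPM in control and 2973 to 3970 CPM in irradiated samples. The proximal tubule markers HNF4A, LRP2 and SLC34A1 were under the minimum of 200 counts, whereas CUBN, GGT1 and ANPEP, also of the proximal tubule, were measured at 4.37, 10.02 and 247.8 CPM in control cells. Leukocyte markers summed to 10.5 to 17.7 CPM in control and 26.9 to 45.1 CPM in irradiated samples, mostly through CD74. Of 10 leukocyte markers 3 were tested and 2 rose, CD74 (log2 fold change 1.64) and CD14 (from 0.268 to 0.570 CPM, adjusted p = 0.000479 from edgeR), while TYROBP had 1 count and CD3E and MS4A1 had 3 counts each in all samples together. Endothelial markers went from 1.32 to 2.45 CPM in control to 4.18 to 6.09 CPM in irradiated samples, and fibroblast markers from 15.8 to 23.4 CPM to 28.5 to 40.1 CPM. Of the endothelial markers 2 of 3 tested rose, CDH5 (log2 fold change 2.48) and PECAM1 (0.72), and of the fibroblast markers 2 of 2 tested rose, DCN (2.36) and COL1A1 (0.78), while KDR, COL3A1 and LUM had 2, 4 and 2 counts in all. The part of these marker genes in the results given here was not tested.

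Expression is given as CPM, the counts of a gene scaled to the TMM-normalised library total, and the comparison of groups used the quasi-likelihood test of edgeR with replicate number as a block and Benjamini-Hochberg adjustment over all 19006 genes that had at least 200 counts over the 10 samples. Of the 10 pathway genes 8 passed this minimum, with totals of 15670 to 62201 counts, and CGAS and TREX1 did not. At an adjusted p-value under 0.05, 2 of the 8 rose (IKBKE and IRF3), 1 fell (STING1) and 5 did not pass, so 37.5% were called against 46.6% of all genes tested (23.9% higher and 22.7% lower). The median log2 fold change of the 8 genes was 0.05, against -0.01 over all genes tested. All 5 irradiated samples lay above all 5 controls for 1 gene (IKBKE) and below them for 1 gene (STING1), patterns seen in 14.6% and 12% of all genes tested (26.7% in either direction), and for the other 6 genes the groups overlapped. These shares do not set the 8 genes apart from the genes tested, and the results are those of single genes.

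**Figure D1:**
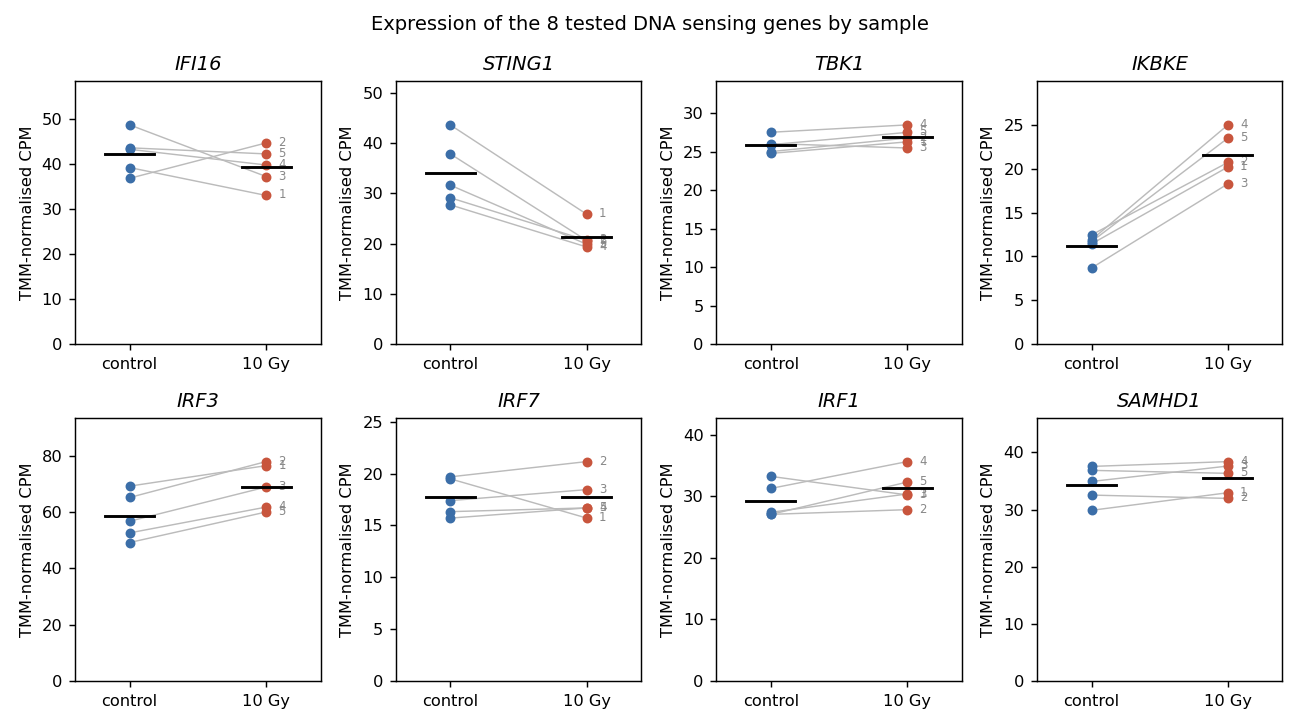
TMM-normalised CPM (vertical axes, from 0) of the 8 tested cytosolic DNA sensing genes in 5 control and 5 irradiated (10 Gy) samples; points are samples, grey lines join samples of the same replicate number (printed beside the irradiated point) and black bars are group means. IKBKE lies above and STING1 below the controls in all 5 irradiated samples, and in the other 6 panels the groups overlap.

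Among the DNA sensors, CGAS was barely represented. CGAS (ENSG00000164430.17, GRCh38 chromosome 6 from 73413515 to 73452297, minus strand) encodes the enzyme that makes cGAMP. It had 1, 2, 3, 3 and 4 counts in control replicates 1 to 5 and 2, 3, 2, 2 and 3 counts in irradiated replicates 1 to 5. These are 25 counts (13 control, 12 irradiated) of 986.5 M counts on all genes, and no sample exceeded 0.0448 CPM. Only 4.31% of its exon bases lie under exons of another gene (DDX43), so overlap accounts for little of its sequence. With genes of at least 1 count kept, the log2 fold change was 0.22 with a standard error (SE) of 0.75 and an adjusted p-value of 0.894 from the same edgeR test, and a difference was not detectable at this depth.

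IFI16 (ENSG00000163565.20, chromosome 1 from 158999968 to 159055155, plus strand) encodes a nuclear and cytosolic DNA-binding protein that cooperates with cGAS and STING. Its expression in control replicates 1 to 5 was 39.3, 36.9, 48.7, 43.3 and 43.7 CPM, and in irradiated replicates 1 to 5 it was 33.1, 44.7, 37.3, 39.8 and 42.3 CPM. The groups overlapped, and the irradiated sample was the lower one in 4 of 5 pairs and the higher one in replicate 2. The mean was 42.4 ± 4.56 CPM in control and 39.4 ± 4.52 CPM in irradiated cells (SD, n = 5 each), which gives a log2 fold change of -0.10 with a 95% interval of -0.31 to 0.10 and an adjusted p-value of 0.368 (edgeR). No IFI16 exon overlaps an exon of another gene. Of the pair of sensor genes, IFI16 was the one with mRNA at a level that could be compared, and its difference lay within the spread of replicates.

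STING1, the adaptor that all cGAMP signalling passes through, fell after irradiation. STING1 (ENSG00000184584.13, chromosome 5 from 139475533 to 139482935, minus strand) was at 43.6, 29.1, 37.8, 27.7 and 31.6 CPM in control replicates 1 to 5 and at 25.8, 20.6, 20.6, 19.3 and 19.9 CPM in irradiated replicates 1 to 5. Every irradiated sample was below every control, and the highest values of each group were those of replicate 1. The mean went from 34.0 ± 6.63 to 21.2 ± 2.62 CPM (SD, n = 5 each), which gives a log2 fold change of -0.66 (SE 0.07, 95% interval -0.82 to -0.51, adjusted p = 0.000193 from edgeR). The difference was seen in 5 of 5 pairs, between -0.88 and -0.50 on the log2 scale, and 7.57% of all genes tested had a lower log2 fold change. The 2 highest controls, replicates 1 and 3, were also the controls with the lowest cell cycle expression. Without both replicates the log2 fold change was -0.58 (adjusted p = 0.000255 from edgeR), and the part of cell cycle expression in the difference was not tested.

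The related kinases TBK1 and IKKε act next to each other downstream of STING, and their genes gave different values. TBK1 (ENSG00000183735.11, chromosome 12 from 64452090 to 64502114, plus strand) encodes the kinase that phosphorylates STING and IRF3. It was at 24.8, 25.02, 26.1, 27.5 and 25.9 CPM in control replicates 1 to 5 and at 26.3, 26.8, 25.5, 28.5 and 27.5 CPM in irradiated replicates 1 to 5. The groups overlapped within a narrow range, with means of 25.9 ± 1.08 and 26.9 ± 1.15 CPM (SD, n = 5 each). The log2 fold change was 0.06 with a 95% interval of -0.04 to 0.16 and an adjusted p-value of 0.319 (edgeR).

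IKBKE (ENSG00000263528.8, chromosome 1 from 206470476 to 206496889, plus strand) encodes IKKε, which is known as the inducible relative of TBK1. It was at 11.4, 12.5, 8.68, 11.9 and 11.7 CPM in control replicates 1 to 5 and at 20.2, 20.7, 18.3, 24.99 and 23.5 CPM in irradiated replicates 1 to 5. The lowest irradiated sample was above the highest control, and replicate 3 was the lowest of both groups. The mean rose from 11.2 ± 1.47 to 21.5 ± 2.69 CPM (SD, n = 5 each), which gives a log2 fold change of 0.94 (SE 0.07, 95% interval 0.78 to 1.10, adjusted p = 5.91e-05 from edgeR), with 5 of 5 pairs higher by 0.73 to 1.07 on the log2 scale. Of all genes tested, 5.8% had a higher log2 fold change. Leaving out each replicate in turn kept the log2 fold change of IKBKE between 0.91 and 1.002.

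The promoters of the kinase genes are shown because one rose and the other did not pass the test. They are the 300 bases from 250 before to 50 after the start, from RefSeq on GRCh38.p14, at chr1:206470226-206470525 (plus strand) for IKBKE and chr12:64451870-64452169 (plus strand) for TBK1, in lower case because neither holds a motif searched.
IKBKE: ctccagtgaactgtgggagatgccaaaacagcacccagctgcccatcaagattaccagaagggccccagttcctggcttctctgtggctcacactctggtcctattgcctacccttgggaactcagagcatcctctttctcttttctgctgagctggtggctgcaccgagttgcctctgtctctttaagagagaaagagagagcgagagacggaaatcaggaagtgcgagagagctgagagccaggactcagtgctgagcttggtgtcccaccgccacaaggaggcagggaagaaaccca
TBK1: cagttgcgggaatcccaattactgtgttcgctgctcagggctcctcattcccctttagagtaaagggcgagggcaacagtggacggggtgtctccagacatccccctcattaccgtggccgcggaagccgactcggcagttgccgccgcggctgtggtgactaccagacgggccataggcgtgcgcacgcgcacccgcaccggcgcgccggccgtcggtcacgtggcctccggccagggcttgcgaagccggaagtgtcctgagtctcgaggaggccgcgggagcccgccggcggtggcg
The motifs searched on both strands were the core of the interferon-stimulated response element (TTTC, any 2 bases and TTTC again, in 3.57% of 35116 RefSeq promoter windows of this length), the GAS element bound by STAT dimers (TTCNNNGAA, 7.66%) and the κB consensus (11.3%). RefSeq windows were matched for 6 of the 10 genes (IFI16, IKBKE, TREX1, IRF1, TBK1 and SAMHD1; 7 windows), and the only matches were in IRF1. The absence of these letters from a window of this size says nothing of the factors themselves.

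Among the transcription factors, IRF3 was the one that passed, with the smallest change of the 3 genes called. IRF3 (ENSG00000126456.16, chromosome 19 from 49659569 to 49665875, minus strand) encodes the constitutive factor that TBK1 activates. It was at 69.3, 65.2, 56.8, 52.6 and 49.2 CPM in control replicates 1 to 5 and at 76.6, 78.0, 69.0, 61.8 and 60.1 CPM in irradiated replicates 1 to 5. The groups overlapped, since replicates 1 and 2 were high in both, yet the irradiated sample was the higher of each of the 5 pairs. The means were 58.6 ± 8.44 and 69.1 ± 8.21 CPM (SD, n = 5 each), with a log2 fold change of 0.24 (SE 0.04, 95% interval 0.15 to 0.33, adjusted p = 0.00213 from edgeR with the replicate block). Without the replicate block the log2 fold change was again 0.24 but did not pass (adjusted p = 0.105 from edgeR). Exons of BCL2L12 on the opposite strand cover 19.3% of the IRF3 exon bases, where reads were treated as left out of the counts of both genes.

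IRF7 (ENSG00000185507.21, chromosome 11 from 612553 to 615983, minus strand) encodes the factor that amplifies interferon production. It was at 19.5, 19.7, 17.4, 16.3 and 15.7 CPM in control replicates 1 to 5 and at 15.7, 21.2, 18.5, 16.7 and 16.7 CPM in irradiated replicates 1 to 5. The irradiated sample was the higher one in 4 of 5 pairs and the lower one in replicate 1, and the means were 17.7 ± 1.81 and 17.7 ± 2.15 CPM (SD, n = 5 each). The log2 fold change had a 95% interval of -0.17 to 0.17 (adjusted p = 0.999 from edgeR), which leaves room for a change of either sign within these bounds.

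IRF1 (ENSG00000125347.15, chromosome 5 from 132440440 to 132508719, minus strand) encodes a factor induced by interferon-γ and by NF-κB. Its values were 27.4, 27.1, 33.3, 31.3 and 27.1 CPM in control replicates 1 to 5 and 30.4, 27.8, 30.2, 35.7 and 32.3 CPM in irradiated replicates 1 to 5. The groups overlapped, with means of 29.2 ± 2.88 and 31.3 ± 2.91 CPM (SD, n = 5 each), which gives a log2 fold change of 0.10 (95% interval -0.05 to 0.25) and an adjusted p-value of 0.232 (edgeR). Without replicate 3 the log2 fold change was 0.16 with an adjusted p-value of 0.0361 (edgeR). This was the only 1 of 13 alternatives in which IRF1 passed. Without replicates 1 and 3 together it did not pass (adjusted p = 0.0671 from edgeR). Exons of other genes on the opposite strand, among them IRF1-AS1, cover 22.9% of the IRF1 exon bases. The IRF1 promoter (RefSeq, GRCh38.p14, chr5:132490724-132491023, minus strand, written 5′ to 3′ along the gene) is shown because it was the only one with motif matches, which are in capitals.
IRF1: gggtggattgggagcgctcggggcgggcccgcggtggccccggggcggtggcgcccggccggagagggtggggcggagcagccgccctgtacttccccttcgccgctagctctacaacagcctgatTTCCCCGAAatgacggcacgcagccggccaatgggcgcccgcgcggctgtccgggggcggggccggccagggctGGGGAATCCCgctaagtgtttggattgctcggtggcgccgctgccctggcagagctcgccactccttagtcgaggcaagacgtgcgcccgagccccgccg
The first match, TTCCCCGAA, is a GAS motif that begins 124 bases before the start, and the second, GGGGAATCCC, is a κB consensus that begins 50 bases before it and reads as a match on both strands. A match of letters is not a bound site, and its relation to the counts was not tested.

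SAMHD1 and TREX1 encode enzymes that break down nucleotides or DNA. SAMHD1 (ENSG00000101347.11, chromosome 20 from 36890229 to 36951893, minus strand) encodes an enzyme that hydrolyses deoxynucleoside triphosphates. It was at 29.9, 32.5, 34.9, 37.6 and 36.9 CPM in control replicates 1 to 5 and at 32.9, 31.96, 37.6, 38.4 and 36.3 CPM in irradiated replicates 1 to 5. The groups overlapped almost wholly, with means of 34.3 ± 3.17 and 35.5 ± 2.86 CPM (SD, n = 5 each), which gives a log2 fold change of 0.05 (95% interval -0.06 to 0.15) and an adjusted p-value of 0.424 (edgeR).

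TREX1 (ENSG00000213689.14, chromosome 3 from 48465811 to 48467645, plus strand) encodes the main exonuclease for DNA in the cytosol, and it had 0 counts in all 10 samples. All of its 1448 exon bases lie under exons of ATRIP on the same strand, so a read from TREX1 fits both genes. Of 311 protein-coding genes wholly covered in this way by exons of the same strand, 305 (98.1%) had 0 counts, as had 17 of 17 (100%) covered by the opposite strand, against 981 of 10631 (9.23%) without overlap. The 0 of TREX1 is therefore not a measurement of its mRNA.

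**Figure D2:**
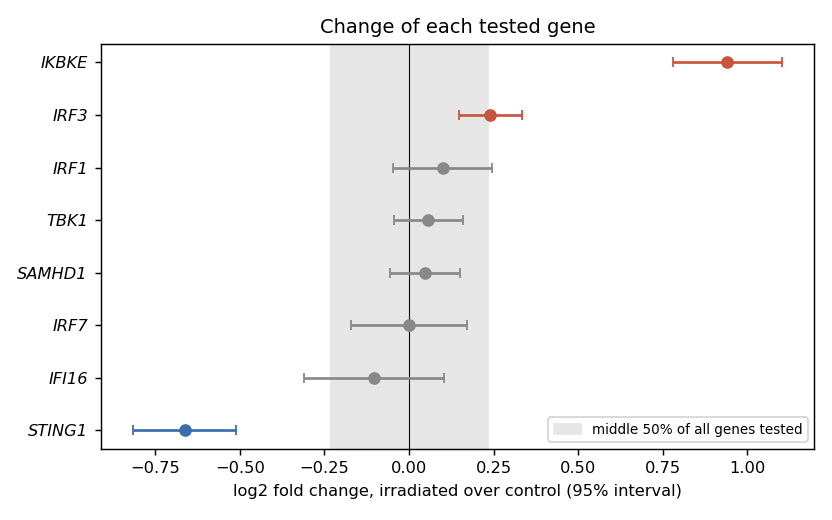
Log2 fold change of irradiated over control (horizontal axis) for the 8 tested genes, with 95% intervals from edgeR; red marks genes that were higher, blue lower and grey those with an adjusted p-value of 0.05 or more, and the shaded band holds the middle 50% of all 19006 genes tested. IKBKE at 0.94 and STING1 at -0.66 lie outside the band of -0.23 to 0.23, and IRF3 at 0.24 lies at its edge.

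The share of related genes within a sample was compared through ratios of counts, which do not depend on the normalisation between samples. The counts of IKBKE were 0.431 times those of TBK1 in control and 0.796 times in irradiated cells. The log2 ratio went from -1.21 ± 0.22 to -0.33 ± 0.12 (SD, n = 5 each), a difference of 0.88 (exact two-sided permutation p = 0.00794, adjusted p = 0.0119 over 3 ratios). It was higher in the irradiated sample of 5 of 5 pairs, and the groups did not overlap. The log2 ratio of IRF7 to IRF3 went from -1.72 ± 0.07 to -1.96 ± 0.18 (SD, n = 5 each). This is a difference of -0.24 with the same exact permutation p-values, lower in 5 of 5 pairs. The groups again did not overlap, but narrowly, with the lowest control at -1.829 and the highest irradiated sample at -1.848. The log2 fold change was -0.00018 for IRF7 and 0.24 for IRF3, so this ratio restates the rise of IRF3. How often ratios of other genes are without overlap was not counted. The log2 ratio of IRF1 to IRF3 was -0.998 ± 0.28 in control and -1.14 ± 0.29 in irradiated cells (SD, n = 5 each), a difference of -0.14 that did not pass (exact permutation p = 0.429). The value of 0.00794 is the smallest that 5 against 5 samples allow, and with signs flipped within the 5 replicate pairs the exact permutation p-values were 0.0625, 0.0625 and 0.125, where 0.0625 is the smallest possible. Ratios over CGAS were not formed, since CGAS had so few counts and TREX1 was not measured.

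**Figure D3:**
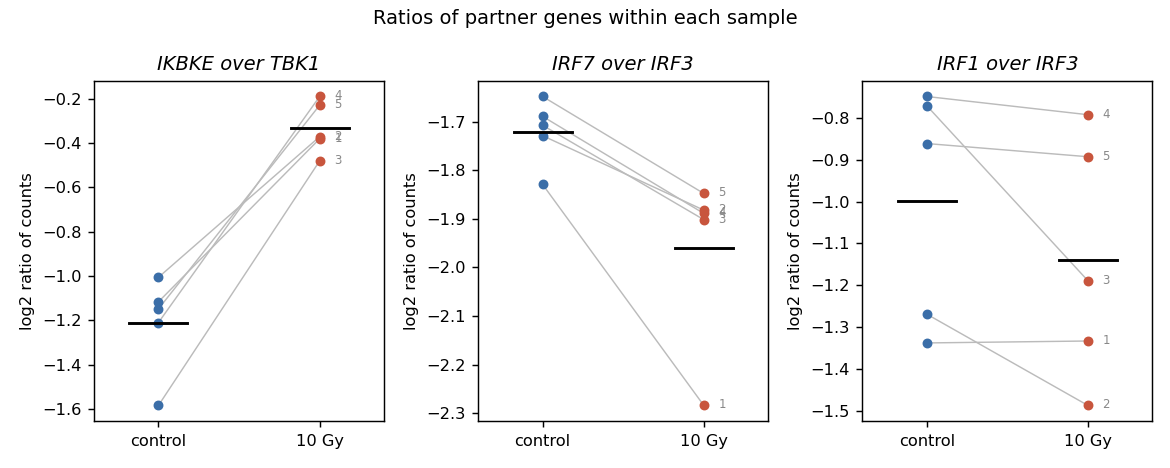
Log2 ratio of counts of 2 genes within each sample (vertical axes, scaled separately) in 5 control and 5 irradiated samples; points are samples, grey lines join samples of one replicate number and black bars are means. IKBKE over TBK1 moves from -1.21 to -0.33 and IRF7 over IRF3 from -1.72 to -1.96 on average, without overlap of the groups, and in the latter irradiated replicate 1 lies apart at -2.28.

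Levels of different genes were compared per length, as CPM per kilobase of the canonical transcript. In control cells IRF3 stood highest at 36.8, followed by STING1 at 15.6 and IFI16 at 14.7, whose ranges over the 5 samples overlapped (12.8 to 20.1 and 12.8 to 16.9). IRF7 at 9.22, TBK1 at 8.56, IRF1 at 8.23 and SAMHD1 at 7.39 formed a run in which each gene's range overlapped that of its neighbour. IKBKE at 3.47 was below them all on this scale and CGAS, at 0.00737, was far below IKBKE. In irradiated cells STING1 (9.79) was below IFI16 (13.7), with ranges of 8.90 to 11.9 and 11.5 to 15.5 that overlapped, and IKBKE (6.64, range 5.64 to 7.71) reached the range of SAMHD1 (7.63, range 6.87 to 8.26). The order depends on the length used, since per kilobase of all annotated exons IFI16 (8.004) was above STING1 (7.08) in control and IKBKE (5.68) was above STING1 (4.43) in irradiated cells. On that scale IKBKE (2.96) was also above IRF1 (2.38) and TBK1 (1.76) in control cells.

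**Figure D4:**
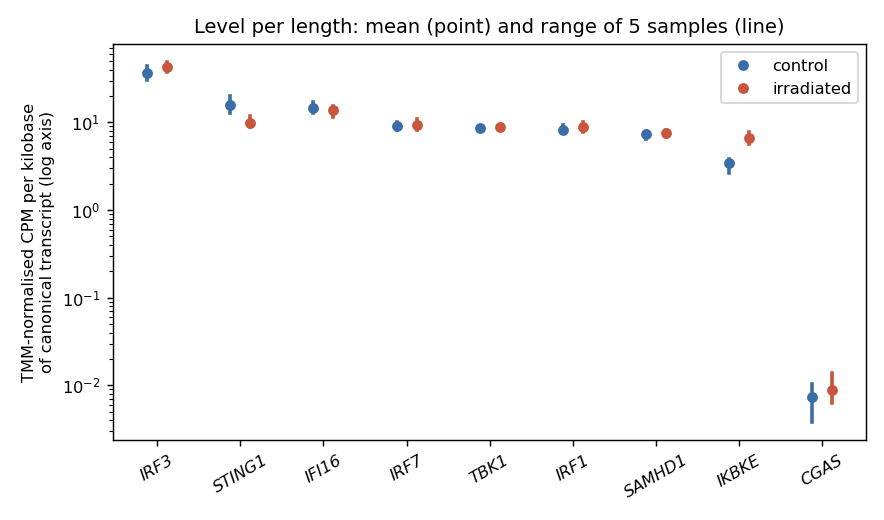
Level of each gene in TMM-normalised CPM per kilobase of canonical transcript (vertical log axis) in control (blue) and irradiated (red) cells; points are means and lines the range of 5 samples. IRF3 stands highest at 36.8 and 43.3, 7 genes lie between 3.47 and 15.6, and CGAS lies near 0.01 in both groups. TREX1 is left out.

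The genes around the pathway were read from lists of named genes, by their counts in each direction beside those of all genes tested (23.9% higher, 22.7% lower, median log2 fold change -0.01). Of 18 other DNA sensors and cofactors 13 were tested, 2 rose (15.4%) and 4 fell (30.8%), with a median log2 fold change of -0.06. Without replicate 1, 3, 4 or 5 the number that rose was 1, and without replicate 4 or 5 the number that fell was 2. RAD50, which rose, and MRE11, which fell, are named here because they only just passed (adjusted p = 0.0488 and 0.048 from edgeR). Exons of other genes cover 76.9% of the RAD50 exon bases, so its counts are uncertain. LRRFIP1, a protein that binds nucleic acids, rose most (log2 fold change 0.26, adjusted p = 0.00286 from edgeR) and ZCCHC3, a cofactor of cGAS, fell most (-0.45, adjusted p = 8e-04 from edgeR). The inflammasome sensor AIM2 had 4 counts and the endosomal sensor TLR9 had 1 count in all samples together, as values chosen after they were seen. Exons of other genes cover 99.7% of the TLR9 exon bases and 7.78% of those of AIM2. The count of TLR9, like the 0 of TREX1, is therefore not a measurement of its mRNA. Of 15 genes that clear nucleic acids or cGAMP 11 were tested, 2 rose (18.2%) and 4 fell (36.4%), with a median of -0.06. In this list 1 gene rose without replicate 1, 2, 4 or 5, and 2 fell without replicate 1, 4 or 5. Both named genes of this list degrade cGAMP or related nucleotides outside cells. SMPDL3A rose from 3.96 ± 0.31 to 7.51 ± 0.76 CPM (SD, n = 5 each; log2 fold change 0.92, adjusted p = 9.1e-05 from edgeR), whereas ENPP1 fell from 0.555 ± 0.172 to 0.368 ± 0.103 CPM (SD, n = 5 each; log2 fold change -0.58, adjusted p = 0.0154 from edgeR).

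Genes that carry, modify or restrain STING were mixed in direction. All 30 were tested, 5 rose (16.7%) and 9 fell (30%), with a median log2 fold change of 0.03. Of all genes tested, 23.9% rose and 22.7% fell. Without replicate 3 the number that rose was 10, and the number that fell was 5 without replicate 1 and 3 without replicate 4 or 5. STIM1, a calcium sensor that holds STING in the endoplasmic reticulum, rose from 58.7 ± 5.86 to 106.9 ± 18.8 CPM (SD, n = 5 each; log2 fold change 0.85, adjusted p = 0.000191 from edgeR). RNF5, a ubiquitin ligase that marks STING for degradation, fell by 0.43 on the log2 scale (adjusted p = 0.0114 from edgeR). Counts of RNF5 are uncertain because a near-identical pseudogene exists.

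Of 15 genes for adaptors of TBK1 and the canonical IKK complex 7 rose (46.7%) and 1 fell (6.67%), with a median log2 fold change of 0.13. TNFAIP3, which encodes the NF-κB target and inhibitor A20, rose from 8.77 ± 3.54 to 107.9 ± 26.0 CPM (SD, n = 5 each; log2 fold change 3.67, adjusted p = 6.7e-05 from edgeR). The 1 gene that fell was the TBK1 adaptor TBKBP1 (log2 fold change -0.23, adjusted p = 0.0371 from edgeR), and it did not pass without replicate 1, 3, 4 or 5. In the parallel pathway that senses RNA and also ends at TBK1 and IRF3, 5 of 9 genes rose (55.6%), 0 fell and the median was 0.35. The count of falling RNA sensing genes was also 0 at an unadjusted p-value under 0.05 in edgeR and with DESeq2 and limma-voom, but 1 with upper-quartile scaling, 2 with library size as the only scaling and 1 without replicate 2. TICAM1, the adaptor of TLR3, rose most, from 21.6 ± 0.57 to 40.3 ± 5.64 CPM (SD, n = 5 each; log2 fold change 0.89, adjusted p = 0.000161 from edgeR).

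Of 9 other genes of the IRF family and its binding proteins 7 were tested, 2 rose (28.6%) and 3 fell (42.9%). The median log2 fold change was -0.27, and 1 gene rose without replicate 1, 2, 4 or 5. IRF5, a factor of inflammatory cytokine expression, fell most, by 0.56 on the log2 scale (adjusted p = 0.0333 from edgeR). Its mean went from 21.4 ± 9.57 to 13.6 ± 1.96 CPM (SD, n = 5 each), lower in 5 of 5 pairs. The controls were widely spread, from 13.1 to 37.0 CPM, and overlapped the irradiated samples at 11.3 to 16.1 CPM.

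Most interferon genes were at or near 0 counts. Of 24 genes for interferons, their receptors and JAK-STAT signalling 16 were tested, and the 8 under the minimum were all interferon genes, of which IFNL1, IFNL2, IFNL3 and IFNG had 0 counts. IFNB1, the main interferon gene downstream of IRF3, had 7 counts in all 10 samples, a value picked out after it was seen. The interferon genes that passed the minimum were IFNE, at 2.91 ± 0.51 CPM in control and 2.94 ± 0.57 CPM in irradiated cells (SD, n = 5 each), and IFNA1, at 0.382 ± 0.074 and 0.320 ± 0.056 CPM (SD, n = 5 each), and their differences did not pass (adjusted p = 0.947 and 0.352 from edgeR). IFNA1 has close paralogs, and exons of other genes cover 63.4% of its exon bases, so its counts are uncertain. Among the 16 genes tested 7 rose (43.8%) and 2 fell (12.5%; 1 without replicate 5), with a median log2 fold change of 0.25. USP18, an inhibitor of the interferon receptor, rose from 1.96 ± 0.68 to 4.50 ± 0.58 CPM (SD, n = 5 each; log2 fold change 1.25, adjusted p = 0.003 from edgeR), and SOCS3, an inhibitor of JAK signalling, fell from 101.2 ± 37.8 to 38.1 ± 5.11 CPM (SD, n = 5 each; log2 fold change -1.34, adjusted p = 0.00224 from edgeR).

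Interferon-stimulated genes moved in both directions. Of 35 such genes 30 were tested, 11 rose (36.7%; 7 without replicate 5) and 9 fell (30%), with a median log2 fold change of 0.04. OAS1, which makes the activator of RNase L, rose from 4.45 ± 0.48 to 12.1 ± 2.49 CPM (SD, n = 5 each; log2 fold change 1.43, adjusted p = 0.000151 from edgeR). IFITM1, a membrane protein that blocks virus entry, fell from 61.9 ± 26.6 to 24.9 ± 7.65 CPM (SD, n = 5 each; log2 fold change -1.28, adjusted p = 0.00371 from edgeR). Exons of other genes cover 31.6% of the IFITM1 exon bases, and its close relatives IFITM2 and IFITM3 share sequence with it, so its counts are uncertain.

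**Figure D5:**
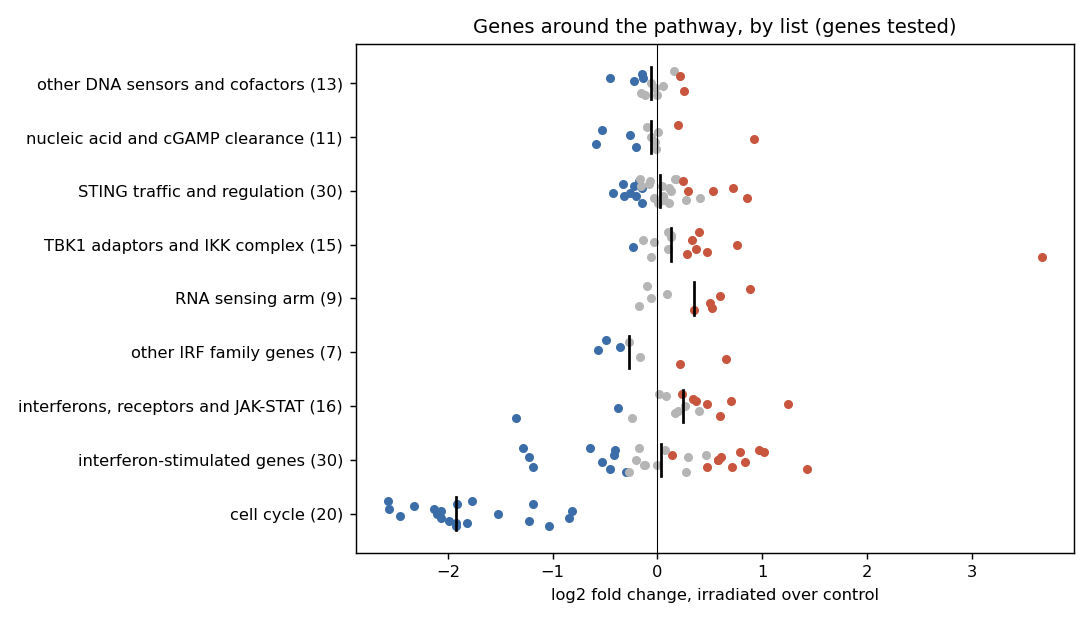
Log2 fold change of irradiated over control (horizontal axis) of the tested genes in 9 lists around the pathway, with the number tested in parentheses; each point is a gene (red higher, blue lower, grey adjusted p of 0.05 or more) and black bars are list medians. TNFAIP3 lies far to the right at 3.67, interferon-stimulated genes spread from -1.28 to 1.43, and all 20 cell cycle genes lie on the left around a median of -1.92.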

How the data were processed

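The cGAS-STING genes and the lists around them were chosen with earlier results of these data known. The authors trimmed adapters, aligned reads to GRCh38 with STAR and deposited the resulting gene counts as whole numbers, unnormalised (the GENCODE release is not given in the sources used here). The submitters' processing notes also name DESeq2. Coordinates, exon lengths and overlaps were taken from a GENCODE annotation of GRCh38, whose gene identifier versions matched those of the table for every gene except STING1. Reads in bases that genes of either strand share were treated as left out of the counts, because genes wholly covered by others nearly all had 0 counts.

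Groups and replicate numbers came from the sample titles. Differences between groups were fitted with edgeR 4.0.16 under R 4.3.3 (TMM, glmQLFit, glmQLFTest, replicate number as a block, at least 200 counts over 10 samples, Benjamini-Hochberg, threshold 0.05). Each standard error was derived from the log2 fold change and the quasi-likelihood F statistic. The numbers were treated as pairs because the count columns of a pair share a B number and the authors' model included replicate number. Deviations from the group means correlated for every number (r from 0.23 to 0.57). For different numbers r ran from -0.46 to 0.48, a range that overlaps, so these correlations do not establish the pairing. Replicates differed by more than sampling noise. Ratios had 0.5 added to each count and were tested by exact permutation; 3 of 5 planned ratios were run. Genes named are all 10 members and, of each list, the called gene with the largest rise and the largest fall, unless said otherwise; the result of one gene that this rule names is not reported here. The fits were also run on simulated counts with the same dispersion for every gene and no replicate effect. That setting differs from these data, so the run does not bear on the replicate block or the replicate spread here.

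Alternatives were DESeq2 1.42.0, limma-voom (limma 3.58.1), upper-quartile scaling, library size only, a minimum of 1 count, filterByExpr, the fit without the replicate block, single replicates left out in turn, replicates 1 and 3 left out together and, for ratios, another added count and sign flips within pairs. Replicate spread, not depth, limits the precision of genes well above the count minimum. Plots were made in Python 3.11.15 with matplotlib 3.10.9.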

Additional observations from a re-analysis of the deposited data

Results flagged for a closer look

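In 22 groups of 5 samples (the genes and ratios in each group) the gap of the most extreme sample to its neighbour was compared with Dixon's 95% critical value of 0.71, and 3 were above it, where chance gives about 1.1. STING1 was 25.8 CPM in irradiated replicate 1, while the other irradiated samples lay between 19.3 and 20.6 CPM; without replicate 1 the log2 fold change was -0.64 (adjusted p = 0.00191 from edgeR). IKBKE was 8.68 CPM in control replicate 3, while the other controls lay between 11.4 and 12.5 CPM, and leaving out replicate 3 gave a log2 fold change of 0.91 (adjusted p = 0.000171 from edgeR). The log2 ratio of IRF7 to IRF3 was -2.28 in irradiated replicate 1 against -1.90 to -1.85 in the other irradiated samples, and without replicate 1 the difference between groups was -0.19 (exact permutation p = 0.0286, the smallest that 4 against 4 samples allow).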

How the results depend on the processing

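The log2 fold change of STING1 passed the threshold under 13 of 13 alternatives (-0.74 to -0.58, adjusted p from 4.11e-15 to 0.00226, edgeR, DESeq2 and limma-voom), as did that of IKBKE (0.87 to 1.002, adjusted p from 3.02e-25 to 0.000963), while IRF3 passed under 12 of 13 (0.16 to 0.27). TBK1, IRF7, SAMHD1 and IFI16 passed under none of the 13, and IRF1 passed under 1 (without replicate 3). Without the replicate block 1 pathway gene rose instead of 2, IRF3 having an adjusted p-value of 0.105 (edgeR), other DNA sensors fell in 2 cases instead of 4, clearance genes rose in 1 and fell in 1 instead of 2 and 4, and TBK1 adaptors fell in 0 instead of 1. With the replicate block as sign flips within pairs, the ratio changes of 0.88 (IKBKE over TBK1) and -0.24 (IRF7 over IRF3) both had an exact permutation p of 0.0625, the smallest possible. Without replicates 1 and 3 these were 0.86 and -0.18 (both exact permutation p = 0.1, the smallest possible), and 8 STING regulators rose instead of 5, 0 TBK1 adaptors fell, and other sensors and clearance genes each rose in 1 case.

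Other sensors rose in 1 case instead of 2 with upper-quartile scaling, library size only, DESeq2, a minimum of 1 count or filterByExpr, as did clearance genes with the first 2 and with the minimum of 1 count. With upper-quartile scaling 2 TBK1 adaptors and 1 RNA sensing gene fell, and with library size only 2 and 2 fell while 1 other IRF gene rose instead of 2. Library size only put the share of higher genes at 38% of those called against 51.4%, and the median log2 fold change of all genes at -0.09. Leaving out each replicate in turn gave 1 to 3 rising and 2 to 3 falling other sensors, 1 to 2 rising and 2 to 4 falling clearance genes, 5 to 10 rising (10 without replicate 3) and 3 to 9 falling STING regulators (3 without replicate 4 or 5), 0 to 1 falling TBK1 adaptors, 0 to 1 falling RNA sensing genes, 1 to 2 rising other IRF genes, 1 to 2 falling interferon pathway genes and 7 to 11 rising interferon-stimulated genes (7 without replicate 5). The cause of these shifts was not tested. Low counts limit what can be said of CGAS and most interferon genes, and 2 planned ratios that needed CGAS were not run.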
